A study of Homo sapiens with 30 samples.

Results

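The comparison described here set BEAS-2B cells that received smoke of tobacco shisha warmed by an electric heater (the labels write electronic heater) against BEAS-2B cells that received smoke of charcoal burnt with no shisha. All wells were harvested 2 h after the exposure, and each group held 3 wells, so the comparison used 6 of the 30 libraries, chosen by their exposure and time labels. BEAS-2B is an immortalised line derived from human bronchial epithelium. The study exposed these cells for 30 min, on a rocker, to 5 conditions of hookah smoking: an internal control, charcoal alone, herbal shisha without tobacco on charcoal, tobacco shisha on charcoal, and tobacco shisha on the heater. RNA was taken from 3 wells of each condition at 2 h and at 24 h. The concentration of each exposure was the highest that released no lactate dehydrogenase, a sign of cell damage, at 24 h, so the groups were matched on toxicity and not on an amount of smoke stated in the sources used here. What the control wells received is not given in those sources. The heater wells had tobacco shisha and no charcoal, and the charcoal wells had charcoal and no shisha, so the part of the shisha and the part of the heat source cannot be told apart in this comparison.

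Expression was measured by RNA sequencing and is given as FPKM, reads per transcript scaled by the length of the transcript and by the depth of the library. The FPKM of the 6 libraries summed to between 199985 and 220259, and between 7681 and 7825 genes reached 1 FPKM in each. The number of reads behind these values is unknown, because the files hold no counts. Correlations of log2 values between wells ran from 0.988 to 0.991 within each group and from 0.973 to 0.982 between the groups. The labels do not say whether the wells came from separate cultures, so the p-values measure the spread between wells, which may be technical. For each gene that spread, and the SE, was estimated over the wells of all 10 groups, at 2 h and at 24 h. It is not the spread of these 6 wells alone. Among the 8 tested genes of an airway epithelial list, the keratins KRT8 and KRT18 were the highest, with means of 519 and 284 FPKM after charcoal and 591 and 353 FPKM after the heater. The basal markers KRT14, KRT6A and TP63 were at 0 and KRT5 and CDH1 were near 0, so the wells carried keratins of simple epithelium but few defining airway markers. The 16 list members found in the data, tested or not, summed to 982.2 to 1014 FPKM after charcoal and 989.5 to 1206 FPKM after the heater. None of 11 ciliated markers and 1 of 12 secretory markers (MUC1) passed the filter on low values. Of 14 immune markers CD14 and CD68 passed it, and the pan-leukocyte gene PTPRC was at 0. All 14 summed to 17.53 to 19.29 FPKM after charcoal and 19.34 to 22.68 FPKM after the heater. Of 11 fibroblast markers 6 passed it. All 11 summed to 1007 to 1029 FPKM after charcoal and 1015 to 1098 FPKM after the heater, as large as the epithelial sum. The highest of them after charcoal were VIM, COL1A1 and THY1, at means of 700.0, 141 and 124 FPKM, while DCN and FAP were at 0. Of 10 endothelial markers EGFL7 and ENG passed the filter, and PECAM1 was at 0. All 10 summed to 54.8 to 58.62 FPKM after charcoal and 58.66 to 65.14 FPKM after the heater.

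Cells answer growth factors, oxidants and many toxicants first with immediate early genes, which kinase cascades switch on without new protein synthesis. Their products include transcription factors of the AP-1 and EGR families, followed by proteins that end the response by removing phosphates from kinases or by degrading short-lived mRNAs. In airway epithelium, tobacco smoke is also known to act through the aryl hydrocarbon receptor (AHR), through NRF2, the regulator of antioxidant genes, and through heat shock and endoplasmic reticulum stress pathways.

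The immediate early genes FOS, EGR1 and EGR2 were the largest rises after heated tobacco relative to charcoal alone, and the transcription factor gene NFATC2, the actin gene ACTC1 and LFNG, which modifies Notch receptors, were the largest falls among genes not listed at 0. Of 8531 genes tested, 2967 (34.8%) differed at an adjusted p under 0.05 in limma, 1432 of them higher (16.8%) and 1535 lower (18.0%) after the heater. Most differences were small, with a median size of 0.24 on the log2(FPKM + 1) scale for the higher genes and 0.33 for the lower genes. A difference of 2-fold or more on that scale was reached by 47 of the higher genes (0.551% of those tested) and by 51 of the lower genes (0.598%). The median over all tested genes was 0.02. Counts in the gene lists below are to be read against the shares of 16.8% higher and 18.0% lower. With heater well 3 left out, 1998 genes passed in place of 2967, and 835 were higher in place of 1432. All log2 differences below are heater minus charcoal on the log2(FPKM + 1) scale, which understates the change of low genes, with 3 wells in each group and p adjusted over all tested genes.

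**Figure D1:**
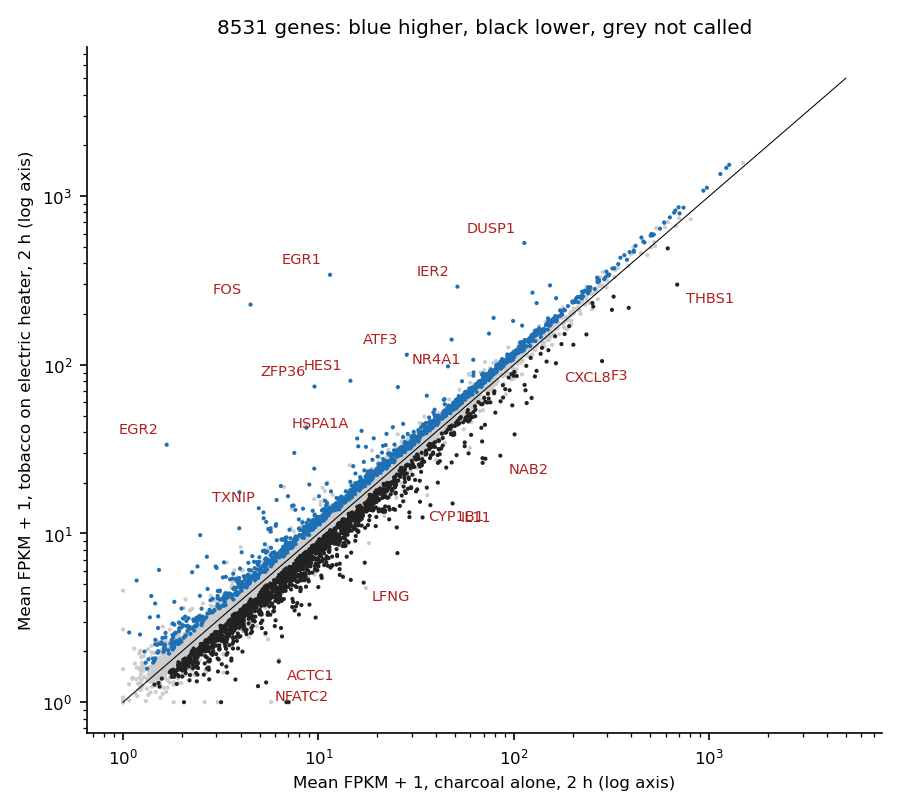
Mean FPKM + 1 of each of the 8531 tested genes after charcoal alone (horizontal, log axis) and after tobacco on the electric heater (vertical, log axis), 2 h after exposure, means of 3 wells. The line marks equal values; FOS, EGR1 and EGR2 stand farthest above it, and NFATC2 and ACTC1 far below it.

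FOS, EGR1 and EGR2 had the largest differences of all tested genes. FOS, an AP-1 subunit, was at 193, 212 and 274 FPKM in the heater wells and at 3.11, 3.49 and 3.89 FPKM in the charcoal wells, a log2 difference of 5.65 ± 0.29 (SE, adjusted p = 9.44e-13). EGR1, a zinc finger factor (chr5:138465479-138469303, GRCh38), was at 330.0, 370.0 and 322 FPKM against 11.5, 8.99 and 10.9 FPKM, a difference of 4.90 ± 0.22 (adjusted p = 1.33e-13). EGR2 was at 30.9, 34.2 and 32.7 FPKM against 0.701, 0.755 and 0.565 FPKM, a difference of 4.33 ± 0.15 (adjusted p = 5.1e-16). For these 3 genes each heater well lay far above each charcoal well, and no value of one group came near the other. Of the 14 tested members of a list of EGR, NR4A, KLF and related early factors, 8 were higher and 1 was lower, with a median of 1.44 against 0.02 for all genes. The 8 were EGR1, EGR2, EGR3, EGR4, NR4A2, KLF4, IER2 and the antiproliferative gene BTG2. At 2 h EGR4 reached 1 FPKM only in the heater wells, at 3.5, 3.2 and 3.08 FPKM. Among the 2 h wells it thus met the filter on low values only through the group where it was high, and its call adds no separate support. IER2 was at 304, 274 and 290.0 FPKM against 52.4, 49.8 and 49.1 FPKM (2.50 ± 0.12). BTG2 rose from 4.04, 3.7 and 4.12 FPKM after charcoal to 11.7, 13.4 and 14.3 FPKM (1.51 ± 0.08). The lower member was SRF, the factor that binds CArG boxes, whose call was lost without heater well 3 (adjusted p = 0.12) or charcoal well 2 (adjusted p = 0.0723). Without heater well 3 the list had 11 higher and 0 lower members, with NR4A3 (adjusted p = 0.0269) and KLF10 (adjusted p = 5.72e-06) among those gained.

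AP-1 members moved in both directions, with the lower calls less firm than the higher ones. Of 8 tested, 4 were higher, namely FOS, ATF3, JUN and JUNB, and 2 were lower, namely FOSL2 and BATF3. With only the 6 libraries in the fit, 4 were higher and 0 lower (adjusted p = 0.0672 for FOSL2 and 0.114 for BATF3). ATF3, a stress-induced member, was at 138, 124 and 78.8 FPKM in the heater wells against 33.3, 26.4 and 22.4 FPKM (2.00 ± 0.27, adjusted p = 5.31e-06). JUNB differed by 0.88 ± 0.12 (adjusted p = 5.95e-06) and JUN by 0.82 ± 0.15 (adjusted p = 0.000191). FOSL2 was lower by 0.71 with an adjusted p of 0.0216, but the wells overlapped, at 56.7, 33.2 and 34.1 FPKM against 74.5, 52.4 and 74.7 FPKM, and the call was lost when heater well 2, heater well 3, charcoal well 1 or charcoal well 3 was left out (adjusted p from 0.0787 to 0.108). NR4A1, an orphan nuclear receptor, stood at 114, 95.8 and 48.4 FPKM after the heater and 66.6, 59.0 and 48.3 FPKM after charcoal. Both groups lay far above the control mean of 0.784 FPKM, heater well 3 lay within the charcoal range, and the difference of 0.49 ± 0.24 did not pass the test (adjusted p = 0.123). NR4A1 gained a call in 1 of 16 alternative settings, that with heater well 3 left out (adjusted p = 0.00549 in limma).

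Inhibitors that shut off signalling split. Of 11 tested feedback inhibitors, 4 were higher and 3 lower, with a median of 0.00. DUSP1, a phosphatase of MAP kinases (chr5:172768096-172771195), was at 576, 529 and 474 FPKM against 127, 110.0 and 99.4 FPKM (2.22 ± 0.18, adjusted p = 2.79e-09), and DUSP5, DUSP6 and RGS2, a regulator of G protein signalling, were higher by 1.07, 1.23 and 1.99. NAB2, the corepressor of EGR1, went the other way, from 86.8, 82.7 and 83.4 FPKM after charcoal to 36.8, 30.2 and 16.7 FPKM after the heater (fell by 1.63 ± 0.15, adjusted p = 1.74e-08). ERRFI1, which inhibits the EGF receptor, was lower by 1.08, with heater well 1 at 101 FPKM and the others at 48.8 and 38.4 FPKM, against 130.0, 123 and 113 FPKM. SPRED2, a brake on RAS to ERK signalling, was lower by 0.85. EGFR itself was lower by 0.49 (adjusted p = 0.000582). ZFP36, which binds AU-rich elements and destabilises mRNAs of cytokines, was the only higher member of 5 tested genes of mRNA decay and NF-kB inhibition. It was at 75.4, 70.8 and 73.8 FPKM against 8.55, 8.17 and 8.93 FPKM, and the difference of 2.96 ± 0.06 had a narrow error (adjusted p = 2.07e-20).

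Promoters of 4 of these genes are printed to show the early response motifs that lie within the proximal region of genes moving in each direction: EGR1 and DUSP1 were higher, ACTC1 (cardiac actin) and IL11 lower. Each is the 250 bases before the RefSeq start in GRCh38.p14, 5' to 3' on the gene's strand, with the marked motif in capitals. EGR1 (chr5:138465229-138465478, plus strand) holds CArG boxes, the binding sequence of serum response factor (CC, then 6 A or T bases, then GG), at 105 to 96 and at 83 to 74 bases before the start.
EGR1: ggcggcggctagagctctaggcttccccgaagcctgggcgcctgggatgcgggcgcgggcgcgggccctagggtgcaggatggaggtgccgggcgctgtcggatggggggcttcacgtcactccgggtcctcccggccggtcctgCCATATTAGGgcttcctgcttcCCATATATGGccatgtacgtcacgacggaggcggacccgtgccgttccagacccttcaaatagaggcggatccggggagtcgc
ACTC1 (chr15:34795550-34795799, minus strand) holds a CArG box at 109 to 100 bases before the start.
ACTC1: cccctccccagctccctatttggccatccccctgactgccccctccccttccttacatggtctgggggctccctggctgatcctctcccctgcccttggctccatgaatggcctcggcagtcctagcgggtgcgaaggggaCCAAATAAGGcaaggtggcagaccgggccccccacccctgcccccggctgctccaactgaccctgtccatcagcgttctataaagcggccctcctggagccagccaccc
DUSP1 (chr5:172771196-172771445, minus strand) holds TGACGTCA, the cyclic AMP response element, at 125 to 118 bases before the start.
DUSP1: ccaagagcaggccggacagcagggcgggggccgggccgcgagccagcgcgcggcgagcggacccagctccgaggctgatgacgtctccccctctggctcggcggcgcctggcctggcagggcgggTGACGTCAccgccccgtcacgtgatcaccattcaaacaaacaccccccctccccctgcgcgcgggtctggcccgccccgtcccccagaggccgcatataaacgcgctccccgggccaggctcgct
IL11 (chr19:55370464-55370713, minus strand) holds TGANTCA, the AP-1 element, at 96 to 90 bases before the start.
IL11: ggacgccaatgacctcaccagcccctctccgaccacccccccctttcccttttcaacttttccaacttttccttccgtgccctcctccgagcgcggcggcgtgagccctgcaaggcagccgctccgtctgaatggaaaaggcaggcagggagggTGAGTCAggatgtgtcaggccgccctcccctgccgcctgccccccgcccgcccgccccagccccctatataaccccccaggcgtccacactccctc
Each motif was searched on both strands of the 300 bases from 250 before to 50 after the start, and a match describes letters and not binding. A CArG box lay in 0.957% of 6267 promoters of tested genes, in 1 of 37 promoters of genes higher by 2-fold or more (EGR1) and in 2 of 38 of genes lower by 2-fold or more (ACTC1 and RCAN1). TGACGTCA lay in 3.45% of all promoters, in 4 of the 37 (CCNL1, DUSP1, SLC25A25 and PPP1R15A) and in 0 of the 38. TGANTCA lay in 4.44% of all, in 1 of the 37 (HSPA6) and in 6 of the 38 (IL11, DLX1, IL6R, MAP2K3, SYNRG and F3). The EGR motif GCGGGGGCG lay in 8.49% of all, in 3 of the 37 and in 5 of the 38, and the AHR core GCGTG in 51.8%, in 17 and in 20. No test was made of these shares.

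**Figure D2:**
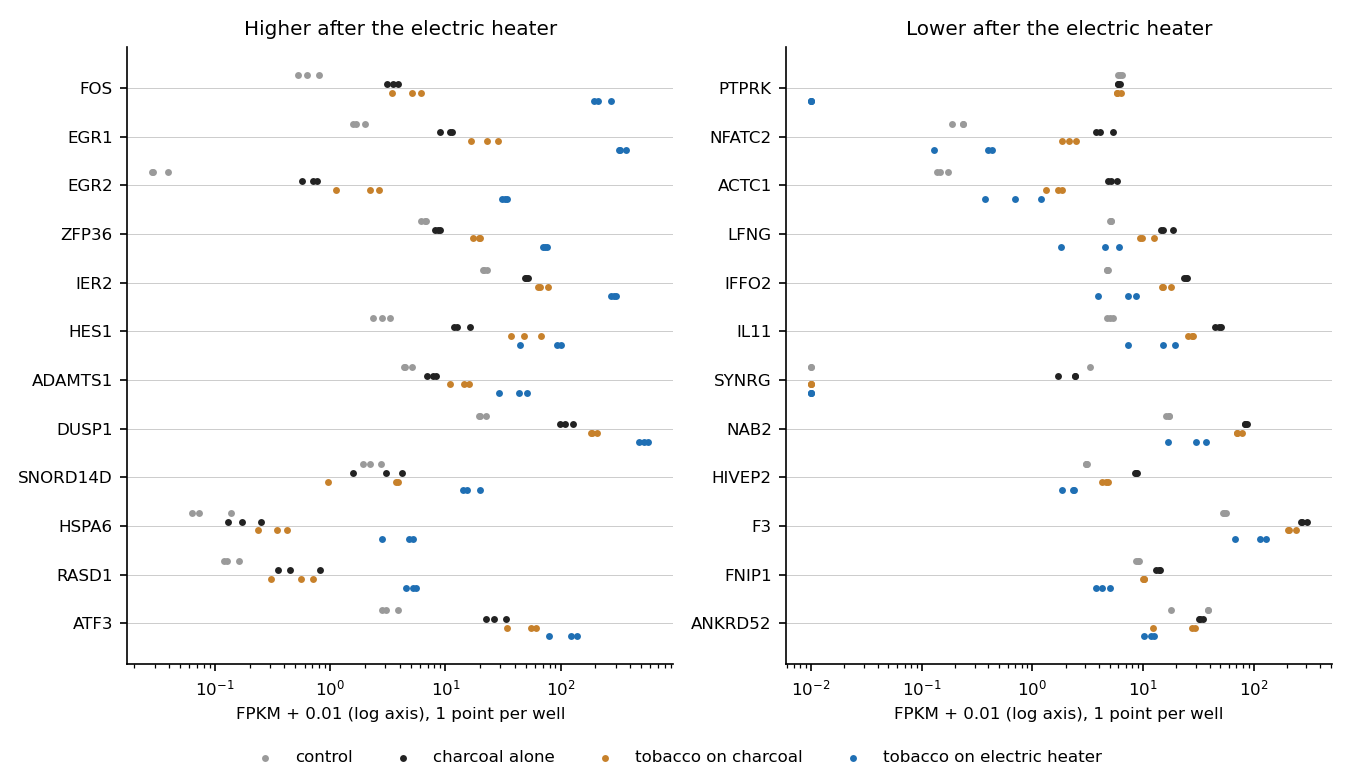
FPKM + 0.01 (log axis) of the 12 largest rises and the 12 largest falls at 2 h, 1 point per well, for control, charcoal alone, tobacco on charcoal and tobacco on the electric heater. For each gene shown the 3 heater wells lie beyond all 3 charcoal wells; PTPRK and SYNRG are listed at 0 in all 3 heater wells.

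The remaining large rises were of varied function. HES1, a transcriptional repressor of the Notch pathway, was at 79.4 ± 30.5 FPKM (SD), with 93.3 FPKM in heater well 2 and 44.4 FPKM in heater well 3, against 16.2, 12.7 and 11.8 FPKM (2.39 ± 0.25, adjusted p = 1.56e-07). ADAMTS1, a secreted metalloproteinase, was at 51.1, 43.6 and 29.4 FPKM against 8.33, 6.86 and 7.86 FPKM (2.25 ± 0.21). RASD1, a small GTPase, was at 4.5, 5.24 and 5.5 FPKM against 0.437, 0.341 and 0.807 FPKM (2.00 ± 0.23). In HES1 and ADAMTS1 heater well 3 was the lowest of its group. A row of 87 bases named SNORD14D, which lies within the heat shock gene HSPA8, was at 15.5, 19.9 and 14.3 FPKM against 1.56, 3.05 and 4.23 FPKM. Reads of HSPA8 and of this row may not be told apart there. Outside the naming rule, and so chosen after their values were seen, SGK1, a serum and glucocorticoid-induced kinase, was higher by 1.53, RHOB, a small GTPase, by 1.52, the cytokine signalling inhibitor SOCS1 by 1.33 and the repressor BCL6 by 1.09. SOCS1 reached 1 FPKM at 2 h only in the heater wells. Over the 47 genes higher by 2-fold or more, heater well 3 was the lowest of the 3 in 27 and the highest in 14.

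NFATC2, a calcium-dependent transcription factor, was at 0.419, 0.388 and 0.12 FPKM after the heater against 4.1, 3.77 and 5.33 FPKM after charcoal (fell by 2.04 ± 0.10, adjusted p = 2.24e-13). ACTC1 was at 1.18, 0.689 and 0.361 FPKM against 4.86, 5.11 and 5.84 FPKM (fell by 1.87 ± 0.12). LFNG, which modifies Notch receptors, was at 6.02, 4.52 and 1.8 FPKM against 15.0, 14.4 and 18.7 FPKM (fell by 1.83 ± 0.19). In all 3 genes each heater well lay below every charcoal well, and heater well 3 was the lowest. HIVEP2, a zinc finger factor, was at 2.35, 2.33 and 1.83 FPKM against 8.5, 8.72 and 8.81 FPKM (fell by 1.61 ± 0.08). F3, the tissue factor that starts coagulation, was at 130.0, 115 and 67.9 FPKM against 273, 267 and 305 FPKM (fell by 1.48 ± 0.29, adjusted p = 0.000345). FNIP1, a regulator of AMPK and mTOR signalling, fell by 1.47, IFFO2, an intermediate filament family gene, by 1.79, and ANKRD52, a subunit of a protein phosphatase complex, by 1.46. Chosen after their values were seen, the growth factors FGF5, FGF2 and KITLG fell by 1.44, 1.15 and 1.19, cyclin D1 (CCND1) by 1.32 and the MAP kinase kinase MAP2K3 by 1.41. Of the 46 lower genes of this size with a value above 0 in the heater wells, heater well 3 was the lowest in 40. PTPRK, a receptor phosphatase, was listed at 0 in all 3 heater wells and at 5.97, 5.94 and 6.21 FPKM after charcoal. SYNRG was listed at 0 in all 3 heater wells, at 2.43, 1.7 and 2.41 FPKM after charcoal, and at 0 in all wells given shisha on charcoal and in 2 of the 3 control wells. Its call was lost when any 1 of the 6 wells was left out (adjusted p from 0.0506 to 0.0792). An exact 0 in these files can be a failed estimate, as in SCAMP3, which was listed at 0 in charcoal well 3 and at 39.7 and 38.7 FPKM in the others, and no fold is given for these genes.

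Cytokines and chemokines were mostly lower or without a call. Of 14 tested, 6 were lower and 1 was higher (median -0.04), but 3 were lower without charcoal well 1, 2 without charcoal well 3, and 2 with only the 6 libraries in the fit. IL11, a cytokine of the IL-6 family, was at 19.6, 15.3 and 7.34 FPKM against 50.3, 48.3 and 44.3 FPKM (fell by 1.78 ± 0.28, adjusted p = 4.07e-05). CXCL8, the main neutrophil attractant of the airway, was at 113, 104 and 86.5 FPKM against 165, 139 and 185 FPKM (fell by 0.68 ± 0.10, adjusted p = 2.68e-05). In both genes all heater wells lay below all charcoal wells. CXCL3 was the higher one, at 8.03, 7.85 and 8.49 FPKM against 4.77, 4.42 and 6.18 FPKM (0.58 ± 0.11). CSF2, the growth factor of granulocytes and macrophages, fell by 0.61 (adjusted p = 0.00508), with adjusted p = 0.0565 without charcoal well 3. IL6 was at 26.4, 22.8 and 19.9 FPKM against 19.9, 16.6 and 24.8 FPKM, overlapping groups with no call (adjusted p = 0.295).

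Lists of the TGF-beta and BMP pathway and of matrix held more lower than higher genes. Of 11 tested TGF-beta and BMP genes, 6 were lower and 1 higher (2 higher without heater well 1 or charcoal well 3), with a median of -0.65. The ligand TGFB2 was at 37.2, 36.7 and 28.5 FPKM against 64.5, 66.4 and 72.5 FPKM (fell by 0.98 ± 0.13). The corepressor SKI fell by 0.93 and the BMP antagonists GREM1 and NOG by 1.04 and 0.73 (NOG not called without heater well 3, adjusted p = 0.0841), while ID2, a BMP target, was higher by 0.84. THBS1, the matrix protein thrombospondin that activates latent TGF-beta, was at 368, 313 and 213 FPKM against 640.0, 627 and 786 FPKM (fell by 1.23 ± 0.16, adjusted p = 3.26e-06). Of 20 tested matrix and protease genes, 7 were lower and 1 (TIMP1) was higher. The lower count was 4 without heater well 3, and 4 without either charcoal well 2 or charcoal well 3. TIMP3, a metalloproteinase inhibitor, fell by 0.83, and PLAU, the urokinase, by 0.62. CLDN1, a tight junction protein, was at 65.9, 58.4 and 45.1 FPKM against 97.1, 93.1 and 101 FPKM (fell by 0.79 ± 0.11). Of 10 tested SRF and YAP cytoskeletal genes, 2 were lower, F3 and the adhesion protein VCL (fell by 0.69), and 0 were higher (1 at an unadjusted p under 0.05 in limma). Their share lower was close to the 18.0% over all tested genes. Of 14 tested Notch and developmental factors, 5 were lower and 3 higher. The Notch ligand JAG1 was at 4.01, 2.88 and 1.4 FPKM against 6.45, 6.98 and 8.13 FPKM (fell by 1.18 ± 0.19), opposite to HES1, and the factors DLX1 and GATA6 fell by 1.08 and 0.69. SNAI1, a repressor of epithelial genes, was higher by 1.11. Of 10 tested clock genes, 5 were lower and 1 higher (0 higher without heater well 1, heater well 3, charcoal well 1 or charcoal well 2), with ARNTL at 1.47, 1.64 and 1.59 FPKM against 2.93, 4.12 and 3.49 FPKM (fell by 0.81 ± 0.10) and CLOCK down by 0.50; 2 of the 10 were lower with only the 6 libraries in the fit.

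Of 4 tested AHR targets, 2 were lower and 0 higher, and 0 were higher at an unadjusted p under 0.05 in limma. CYP1B1, an AHR target that oxidises polycyclic hydrocarbons, was at 15.8, 16.9 and 10.6 FPKM in the heater wells and 33.1, 32.4 and 30.7 FPKM in the charcoal wells (fell by 1.13 ± 0.21, adjusted p = 0.000188), and the groups did not overlap. The scaffold gene NEDD9 was also lower, by 0.81, and TIPARP was at 51.1, 53.3 and 34.2 FPKM against 57.2, 55.0 and 41.6 FPKM, with no call (adjusted p = 0.277). CYP1A1 did not pass the filter, with means of 0.502 FPKM after the heater and 0.566 FPKM after charcoal. Of 23 tested NRF2 targets, 7 were lower and 5 higher, with a median of 0.11. The lower ones included members of the thioredoxin and glutathione systems. TXNRD1, thioredoxin reductase, was at 158, 159 and 133 FPKM against 228, 231 and 243 FPKM (fell by 0.64 ± 0.07, adjusted p = 1.32e-07), SRXN1, sulfiredoxin, fell by 0.23, and GCLM and GCLC, the subunits of glutathione's rate-limiting enzyme, fell by 0.42 and 0.25. The higher ones were the pentose phosphate enzymes PGD, TALDO1 and TKT, the reductase AKR1C3 and the peroxiredoxin PRDX1, by 0.19 to 0.37. The higher count of 5 was 7 without heater well 2, and 3 without heater well 1, heater well 3, charcoal well 2 or charcoal well 3, each left out singly, and TKT and AKR1C3 lost their calls in each of those 4. NQO1 was at 71.5, 63.8 and 74.9 FPKM against 63.8, 61.8 and 64.2 FPKM, a difference of 0.14 with no call (adjusted p = 0.14). Of 7 tested genes of metal handling, 0 were called in limma and 0 reached an unadjusted p under 0.05. Among them the metallothionein MT2A was at 477, 400.0 and 477 FPKM against 398, 385 and 406 FPKM.

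Heat shock genes were higher for the inducible HSP70 forms and their cochaperone. Of 24 tested, 6 were higher and 1 lower (0 lower without heater well 2, charcoal well 1 or charcoal well 2), with a median of 0.16. The 6 higher became 4 without heater well 3, 4 of 22 with a trend with transcript length removed, and 8 with only the 6 libraries in the fit. HSPA1A was at 41.0, 37.1 and 28.6 FPKM against 15.5, 14.7 and 14.2 FPKM (1.20 ± 0.27, adjusted p = 0.00148), and HSPA1B differed by 1.27 ± 0.28. HSPA6 was at 4.82, 5.2 and 2.78 FPKM against 0.162, 0.121 and 0.239 FPKM (2.13 ± 0.50, adjusted p = 0.00208). HSPA1A and HSPA1B are nearly identical, as are HSPA6 and HSPA7, so reads may be shared within each pair and the split between members is uncertain. DNAJB1, an HSP40 cochaperone, was at 161, 164 and 132 FPKM against 76.6, 74.5 and 69.9 FPKM (1.03 ± 0.20). In each of these genes heater well 3 was the lowest of its group and still above all charcoal wells. Chaperones of the endoplasmic reticulum went the other way, with 6 of 11 tested lower, 0 higher (0 at an unadjusted p under 0.05 in limma) and a median of -0.21. After a trend with transcript length was removed, 9 were lower. HSPA5, their main chaperone, was at 218, 222 and 192 FPKM against 303, 314 and 333 FPKM (fell by 0.59 ± 0.06, adjusted p = 7.81e-08), DNAJB9 fell by 0.47 and MANF by 0.21.

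Stress genes controlled by ATF4 and p53 were partly higher. Of 20 tested genes of the integrated stress response, 8 were higher and 1 lower, and 5 were higher without heater well 3. PPP1R15A, which restores translation by directing dephosphorylation of eIF2-alpha, was at 220.0, 215 and 131 FPKM against 83.5, 80.6 and 69.2 FPKM (1.24 ± 0.24, adjusted p = 0.000365). DDIT4, an inhibitor of mTORC1, was at 13.2, 13.8 and 17.4 FPKM against 5.11, 4.5 and 5.73 FPKM (1.36 ± 0.15), and CHAC1, which degrades glutathione, was at 7.92, 6.1 and 3.2 FPKM against 2.29, 2.24 and 2.33 FPKM (0.97 ± 0.18). The heater wells of DDIT4 were close to the control mean of 15.0 FPKM, and those of charcoal lay below it. Of 18 tested p53 targets, 7 were higher and 1 lower (0 lower when any single well other than charcoal well 2 was left out). The 7 higher became 5 without heater well 3, 5 with only the 6 libraries in the fit, and 6 with the length trend removed. The higher ones included GADD45G by 1.43, GADD45B by 1.09 and the repair gene XPC by 0.47. CDKN1A, the p53 target that arrests the cycle, was at 79.1, 79.4 and 65.3 FPKM against 68.8, 65.9 and 62.8 FPKM, with no call (adjusted p = 0.153). TXNIP, the inhibitor of thioredoxin, was at 11.9, 11.2 and 13.9 FPKM against 3.29, 3.46 and 5.95 FPKM (1.38 ± 0.15, adjusted p = 4.38e-07), with a control mean of 20.2 FPKM above both. Hypoxia genes showed no single direction: of 22 tested, 4 were higher and 5 lower. These counts were near the shares over all tested genes, 16.8% higher and 18.0% lower. ADM, a vasodilator peptide, was higher by 0.59 and the glycolytic regulators PFKFB3 and HK2 fell by 0.69 and 0.61, while VEGFA was at 11.2, 11.2 and 6.85 FPKM against 10.7, 9.32 and 9.43 FPKM, with no call (adjusted p = 0.86). The lower hypoxia count was 3 without any of the heater wells singly, and 2 without charcoal well 1 or charcoal well 3.

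**Figure D3:**
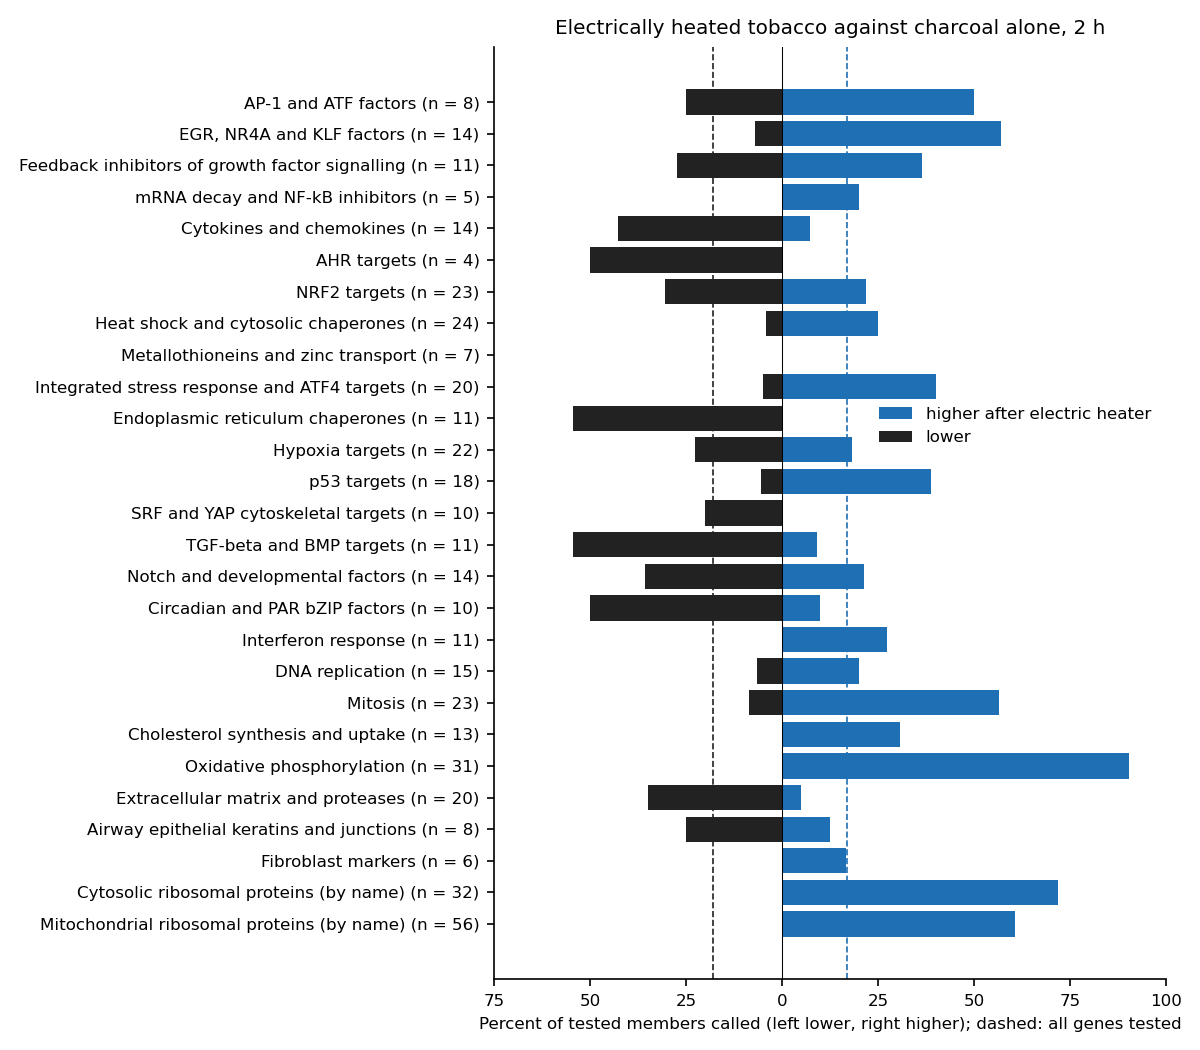
Percent of the tested members of each gene list called higher (right, blue) or lower (left, black) after the electric heater than after charcoal alone, with the number tested in brackets. Dashed lines are the shares over all tested genes, 16.8% higher and 18.0% lower; oxidative phosphorylation reaches farthest to the right.

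Genes of mitochondria, ribosomes and mitosis had small rises relative to charcoal alone. Of 31 tested subunits of oxidative phosphorylation, 28 were higher and 0 lower (0 at an unadjusted p under 0.05 in limma), with a median of 0.23. ATP5B, the catalytic subunit of ATP synthase, was at 551, 569 and 626 FPKM against 499, 507 and 495 FPKM (0.22 ± 0.04, adjusted p = 5.41e-05). UQCRC2, of complex III, was at 66.1, 64.2 and 73.3 FPKM against 55.1, 54.9 and 55.7 FPKM (0.29 ± 0.05). In both genes the groups did not overlap and heater well 3 was the highest. Of these subunits 22 lay in the shortest of 4 equal classes of transcript length, and 18 were higher without heater well 3, 18 with only the 6 libraries in the fit, and 7 after a trend with transcript length was removed. Of 32 tested cytosolic ribosomal proteins, a set taken by name after its values were seen, 23 were higher and 0 lower (0 at an unadjusted p under 0.05). The 23 became 16 without heater well 3 and 18 with only the 6 libraries in the fit. With the length trend removed, 17 of 30 were higher, and 19 of the 32 lay in the shortest length class. Of 56 mitochondrial ribosomal proteins, also taken by name after their values were seen, 34 were higher and 0 lower (1 at an unadjusted p under 0.05). The 34 became 11 without heater well 3, 22 without charcoal well 3, 17 with only the 6 libraries in the fit, and 11 with the length trend removed. Of 23 tested mitotic genes, 13 were higher and 2 lower (median 0.17). The 13 higher became 9 without heater well 3, 11 with only the 6 libraries in the fit, and 10 of 22 with the length trend removed. The 2 lower became 0 without heater well 3 or with only the 6 libraries, and 1 without any of the charcoal wells. Against control, 22 of the 23 were lower after charcoal (median -0.40), beside 16.2% of all tested genes. After the heater, 13 were lower and 1 was higher than control (median -0.19). Over all tested genes, 24.8% were lower and 9.27% higher than control after the heater. The kinase AURKA was at 82.2, 89.5 and 87.5 FPKM against 69.3, 66.4 and 67.5 FPKM (0.35 ± 0.06), and the kinetochore gene NDC80 was at 49.6, 53.3 and 56.5 FPKM against 38.5, 39.2 and 37.2 FPKM (0.46 ± 0.07). Both groups lay below the control means of 96.8 and 60.7 FPKM for these genes. Of 15 tested genes of DNA replication, 3 were higher and 1 lower, with 1 higher without heater well 3 and 5 higher without heater well 2, and the lower one, the cyclin CCNE1, fell by 0.62. The share higher was close to the 16.8% over all tested genes. Of 13 tested cholesterol genes, 4 were higher (2 without charcoal well 2 or charcoal well 3), FDFT1 by 0.34. With the length trend removed, 2 were higher. Of 11 tested interferon genes, 3 were higher (1 without heater well 3), IFIT2 by 0.40, ISG15 by 0.31 and IFITM3 by 0.22. With the length trend removed, 1 of 10 was higher, and ISG15 and IFITM3 lost their calls (adjusted p = 0.168 and 0.358 in limma). ISG15 also lost its call without charcoal well 1 or 2, and IFITM3 without charcoal well 3.

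Transcript length moved with these differences. Over the 8133 tested genes with a length (95.3%), the rank correlation of length with the log2 difference was -0.45, a description across genes, which are not independent. In the shortest of 4 equal classes, up to 1636 bases, 30.2% of genes were higher and 5.26% lower, with a median of 0.14. In the longest class, from 4176 bases, 3.64% were higher and 40.4% lower, with a median of -0.15. Relative to the control mean, the median of the longest class minus that of the shortest was -0.01, -0.02 and 0.00 in the charcoal wells and -0.25, -0.21 and -0.42 in the heater wells, so heater well 3 had the steepest slope. In the wells given shisha on charcoal it ran from -0.12 to -0.20. With the length trend removed in each library, 1031 of 8133 genes were higher (12.7%) and 1124 lower (13.8%). The part that length, RNA quality or library preparation had in any single difference was not tested. Of the genes that differed by 2-fold or more, 4 of 47 higher and 21 of 49 lower ones lay in the longest class, and 16 and 8 in the shortest.

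**Figure D4:**
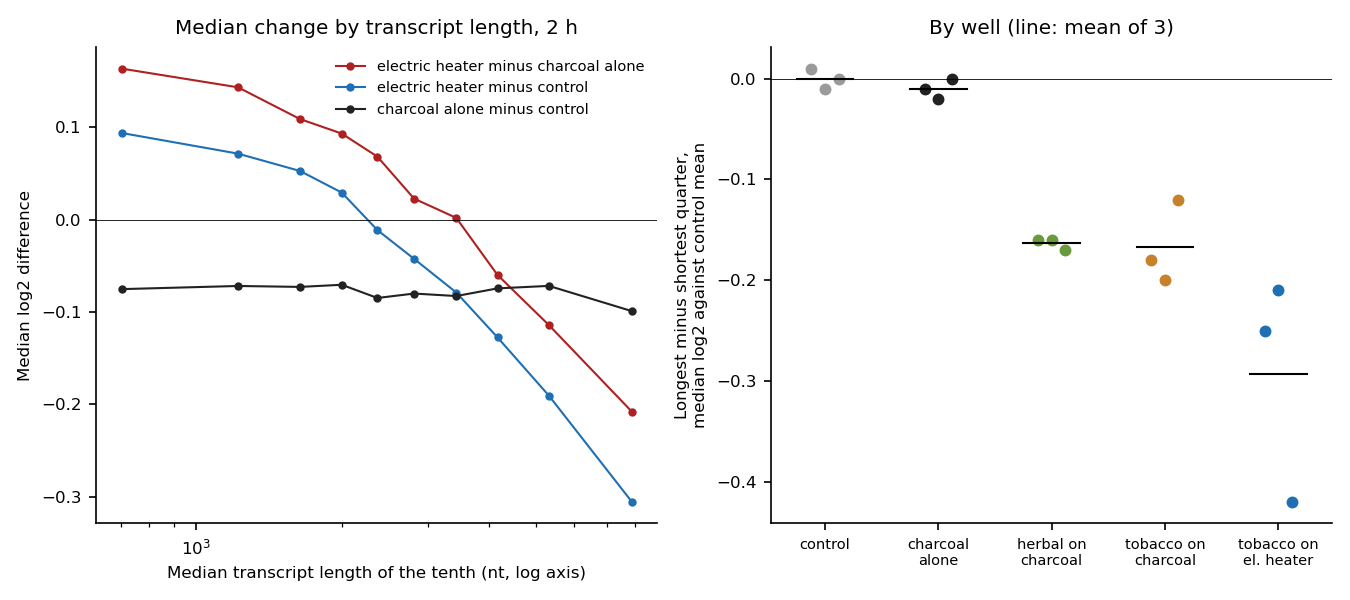
Left, median log2 difference of tested genes against median transcript length (nucleotides, log axis) of 10 equal length classes for 3 comparisons at 2 h. Right, for each well, the median log2 value against the control mean in the longest of 4 transcript length classes minus that in the shortest; charcoal wells lie between -0.02 and 0.00 and heater wells between -0.42 and -0.21.

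The other 2 h exposures place these levels. These comparisons reuse the heater or charcoal wells, so their values are given side by side and are not independent of those above. Against control, 791 genes were higher (9.27%) and 2112 lower (24.8%) after the heater, and 696 were higher (8.16%) and 1385 lower (16.2%) after charcoal. Of the 47 genes 2-fold or more above charcoal with a mean of at least 1 FPKM and wells apart, 42 were also above control after the heater, and 24 were above control after charcoal alone. FOS differed from control by 7.10 after the heater and by 1.45 after charcoal, and DUSP1 by 4.60 and 2.38. ZFP36 differed from control by 3.31 after the heater and by 0.35 after charcoal. Of the 49 genes 2-fold or more below charcoal, 42 were above control after charcoal alone, and after the heater 13 were above control and 14 below. IL11 was at a mean of 5.04 FPKM in control wells, 3.01 lower on the log2 scale than after charcoal, and the heater wells were 1.22 above control. NFATC2 was 2.15 above control after charcoal and 0.11 above it after the heater, the latter with no call (adjusted p = 0.425). CYP1B1 was 1.36 above control after charcoal and 0.24 above it after the heater, the latter with no call (adjusted p = 0.408). HSPA5 was 0.73 above control after charcoal and 0.14 after the heater (adjusted p = 0.0661).

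Tobacco shisha on charcoal, which shares tobacco with the heater group and charcoal with the charcoal group, lay nearer to charcoal alone for most genes with a large difference. Of the 47 higher genes its mean was nearer to charcoal in 41 and nearer to the heater in 6, and of the 49 lower genes it was nearer to charcoal in 34 and nearer to the heater in 15. Herbal shisha on charcoal, without tobacco, was also nearer to charcoal in most, 35 of the 47 higher and 31 of the 49 lower genes. It was nearer to the heater in 12 and 18. These genes were picked by their heater against charcoal difference. FOS had a mean of 4.89 FPKM with tobacco on charcoal, EGR1 22.8, ZFP36 19.0 and DUSP1 193 FPKM, each below every heater well. HES1 had a mean of 50.9 FPKM there, above heater well 3, and its difference between tobacco on the heater and tobacco on charcoal was 0.59 with no call (adjusted p = 0.0926). ACTC1 had a mean of 1.61 FPKM, above every heater well and below every charcoal well. CXCL3 was at a mean of 3.22 FPKM with tobacco on charcoal, below both groups.

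At 24 h, in other wells, the same pair of exposures gave 2725 higher genes (31.9%) and 2651 lower genes (31.1%), and the 24 h difference departed from the 2 h difference in 4864 genes (57.0%, an interaction term in limma). Of the 1432 genes higher at 2 h, 571 were higher and 433 lower at 24 h, and of the 1535 lower at 2 h, 486 were lower and 509 higher. Of the 14 tested EGR, NR4A, KLF and related early factors, the difference was more negative at 24 h than at 2 h in 7 and more positive in 2, NR4A1 and SRF. Of the 8 AP-1 members it was more negative in 2, FOS and JUNB, and more positive in 2, MAFF and BATF3, and that of ATF3 between the times did not pass (adjusted p = 0.141). Taken in both directions, the counts of these 2 lists lay near the 57.0% over all tested genes. FOS differed by 1.60 at 24 h and EGR1 by 1.29, EGR2 had means of 0.334 ± 0.348 FPKM (SD) after the heater and 0 after charcoal, and ZFP36 differed by 0.21. Of the 24 tested heat shock and chaperone genes, the difference was more positive at 24 h in 20. DNAJB1 was not among them (adjusted p = 0.236). HSPA6 differed by 6.15, with a mean of 121 ± 116 FPKM (SD) after the heater and 0.0418 ± 0.0219 FPKM after charcoal, and HSPA1A by 3.61. IL11 turned from lower at 2 h to higher at 24 h, at 33.8 ± 8.47 FPKM against 2.48 ± 0.169 FPKM (3.29). HSPA5, CXCL8 and SRXN1 likewise passed from lower to higher, at 0.77, 0.53 and 1.10. TXNIP went from higher to lower, at 16.5 ± 2.64 FPKM after the heater against 39.7 ± 3.04 FPKM after charcoal at 24 h (fell by 1.22). CYP1B1 was lower at both times (fell by 0.86 at 24 h), and ADAMTS1 was higher by 2.30 at 24 h and 2.25 at 2 h.

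**Figure D5:**
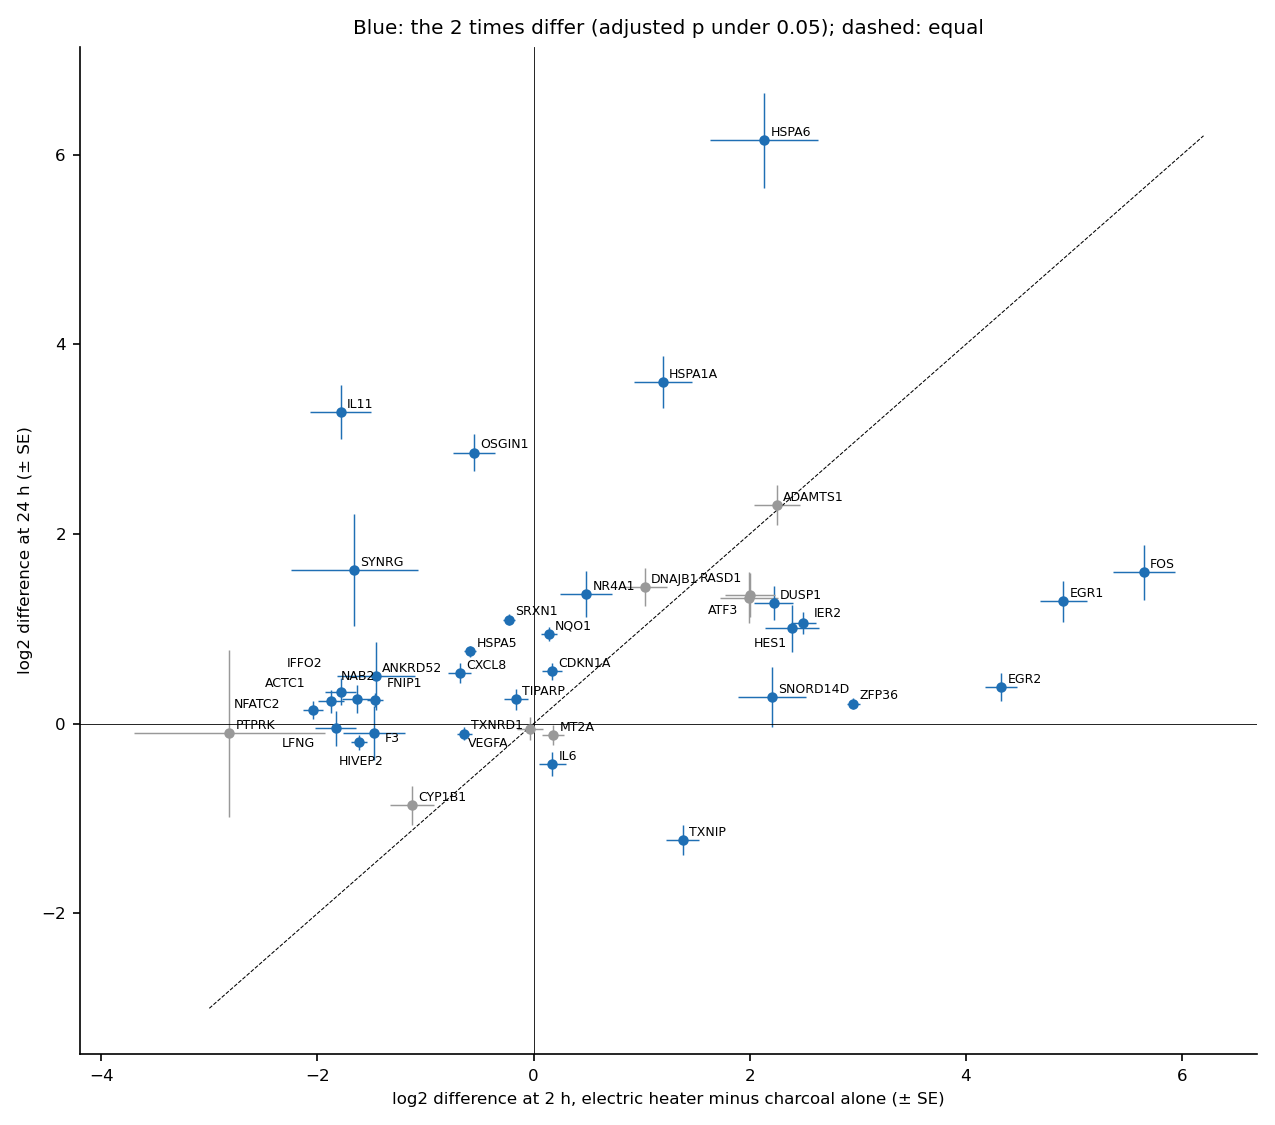
Log2 difference, heater minus charcoal alone, at 2 h (horizontal) and at 24 h (vertical) for the genes named at the extremes and for fixed marker genes; bars are SE. The genes at the extremes were picked by their 2 h difference. Blue genes differed between the times at an adjusted p under 0.05; FOS, EGR1, EGR2 and ZFP36 lie below the dashed line of equal values, and IL11, HSPA6 and OSGIN1 above it.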

How the data were processed

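Total RNA of BEAS-2B wells was sequenced after Illumina TruSeq library preparation from 3 wells per condition and time, 30 libraries in all. The authors deposited FPKM per transcript row, made with HISAT2 2.1.0, StringTie 1.3.4d and the hg38 build per the submitters' processing notes; the annotation release and strand setting are not given in the sources used here. FPKM hold no read counts, so depth is unknown, no count model could be run, and only the spread between wells measures precision. Each file had 29190 rows; 1 row per gene name was kept, that with the highest mean over the 30 libraries. Of 27 rows whose names had turned into date serials, 26 were named by accession. The test was limma 3.58.1 (R 4.3.3) on every gene that reached 1 FPKM in 3 libraries, with a mean-variance trend, on log2(FPKM + 1), with 1 mean per group over all 10 groups (20 residual degrees of freedom). P-values were two-sided and Benjamini-Hochberg adjusted over 8531 genes, with a threshold of 0.05. The script was tested on simulated data. Lengths came from GENCODE transcripts, and promoters, gene positions and symbols from RefSeq (GRCh38.p14). The genes named were, by rule, the 12 strongest increases and 12 strongest decreases that passed the test, reached a mean of 1 FPKM and had wells that did not overlap, then up to 4 per list taken by lowest p, then a fixed set of stress and early response genes. Other list members and 2-fold genes named were chosen after their values were seen. The members, lists and tests were chosen with earlier results of these data known. Alternatives were another scaling, pseudocount, filters, variance model, row choice, the replicate block, only the groups compared, each well left out, and, added after seeing the data, the length trend removed and genes listed at 0 left out. Some genes are not reported here.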

Additional observations from a re-analysis of the deposited data

Results flagged for a closer look

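The difference between electric heater and charcoal at 24 h was compared with that at 2 h for 40 genes, the largest rises and falls at 2 h and the fixed marker genes, with an interaction term in limma. The wells of the 2 times are separate. The largest rises and falls, however, were picked by their 2 h difference, which this term subtracts. For them a smaller difference at 24 h is partly built in. For 32 of the 40 the 24 h log2 difference departed from the 2 h one at an adjusted p under 0.05. Over all tested genes the share was 57.0%. The values below are the 24 h difference minus the 2 h difference.

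Among the genes examined, 10 had a difference that was more positive at 2 h. The values were -4.05 for FOS, -3.94 for EGR2, -3.61 for EGR1, -2.75 for ZFP36, -1.44 for IER2, -1.38 for HES1 and -0.95 for DUSP1. They were -2.60 for TXNIP, -1.92 for SNORD14D and -0.60 for IL6.

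The difference was more positive at 24 h for the other 22. The values were 4.02 for HSPA6, 3.41 for OSGIN1, 2.41 for HSPA1A, 1.35 for HSPA5, 1.33 for SRXN1, 0.81 for NQO1, 0.54 for TXNRD1, 0.42 for TIPARP and 0.38 for CDKN1A. They were 5.08 for IL11, 1.38 for F3, 1.22 for CXCL8 and 0.88 for NR4A1.

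The rest of those 22 were among the largest falls at 2 h. These were 2.19 for NFATC2, 2.12 for IFFO2, 2.11 for ACTC1, 1.96 for ANKRD52, 1.89 for NAB2, 1.78 for LFNG, 1.72 for FNIP1 and 1.42 for HIVEP2. The fitted value of 3.28 for SYNRG rests on exact zeros in the 2 h heater wells, which can be failed estimates, and is no measure of a fold. The 8 genes whose difference between the times did not pass the test were ADAMTS1, ATF3, CYP1B1, DNAJB1, MT2A, PTPRK, RASD1 and VEGFA.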

How the results depend on the processing

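The number of genes that passed at 2 h, 2967, became 1895 with only the groups compared in the fit (832 higher in place of 1432), and 98 with a 2-fold minimum (47 higher and 51 lower). With a stricter minimum mean of 5 FPKM, 932 were lower in place of 1535, and 3166 differed between the times in place of 4864, with fewer genes tested. Leaving out 1 well at a time gave 1998 to 2977 genes in all, 835 to 1439 higher and 1163 to 1538 lower, with the lowest values without heater well 3. The interaction gave 4505 to 4934 genes, lowest without the first and highest without the second heater well at 24 h. Median-of-ratios scaling moved the median of all genes from 0.0244 to 0.00897, with 1284 higher and 1695 lower. Against control, the heater difference reversed sign after the length trend was removed for EDEM1 (0.00) and VCL (0.04). The replicate block gave 2983 genes, 1441 higher and 1542 lower, and 4825 for the interaction. The well numbers were not taken to pair the samples. Same-numbered wells had correlations of deviations of 0.026, -0.036 and -0.001 at 2 h. At 24 h they had 0.081, 0.060 and 0.074, each well correlating best with its own number, a hint from the data and not from the design. Of 100 named genes that passed, 72 could be tested in all 16 settings, and 57 of these passed in each. Another 23, low genes such as EGR4 and NFATC2, passed wherever they were tested, and 20 were lost in at least 1, among them BHLHE41, CSF2, ISG15, KRT8, OSGIN1, SLC7A11, TIMP1 and TYMS. Where no construction of a setting accounts for a change, the cause was not tested. Depth is unknown, so the counting error of low genes could not be given, and 3 wells per group and exact zeros limit precision.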
